A study of Arabidopsis thaliana with 11 samples.

Results

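Overexpression of PTB2, a polypyrimidine tract-binding protein of Arabidopsis thaliana, was compared with wild type in whole seedlings across all genes whose RNA was detected. The overexpressor (OE2, At5g53180 overexpression) and the wild type (WT) were both of the Columbia ecotype, 11 days old and raised on sucrose medium in continuous light after 2 days of stratification. No treatment separated the groups. Of the 11 libraries in the series, 2 were OE2 and 2 were WT, and the authors deposited 1 RPKM value per gene and genotype, a single value for both libraries of each. RPKM scales the reads of a gene by its length and by the depth of the column. The other columns, used here only as a setting for OE2 and WT, were MI12 and MI3, whose artificial miRNAs are directed at PTB1 plus PTB2 and at PTB3, and OE1 and OE3, which overexpress PTB1 and PTB3. MI3 has 1 library and a recovered depth of 46.5 mega-reads, so its column pools nothing, whereas the other 5 columns have 2 libraries each. The 2 OE2 libraries carry the same line label, and no source used here names the promoter that drives the transgene. Genes entered the comparison when they reached 1 RPKM in at least 2 of the 6 columns, which held for 19669 of 33602 genes and left 13933 out. Because each genotype has 1 value, no spread between plants can be given, and no difference below carries a test or a p-value. Intervals are 95% exact (Clopper-Pearson) counting intervals for the ratio of OE2 to WT, from reads recovered from the deposited values, and cover counting error only.

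PTB proteins bind pyrimidine-rich stretches in RNA and act mainly as regulators of splicing. In plants PTB1 and PTB2 are close relatives, PTB3 is more distant, and PTB1 and PTB2 are known to limit their own and each other's transcripts by directing splicing toward forms that are degraded. The values used here are totals per gene, so splice forms were not analysed here and a change in the form of a transcript without a change in its amount would not be seen.

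The recovered depth, in mega-reads, was about 79.6 in OE2 and 93.2 in WT, and the median compared gene carried 1658 reads in OE2 and 2045 in WT. Tissue markers placed both columns as green seedlings. The 4 mesophyll markers summed to 8118 RPKM in WT and 8994 in OE2, and the 8 root hair markers to 69.5 and 70.1. The 3 markers of the root apical meristem summed to 1.94 and 1.09 RPKM and did not enter the comparison. Of 4 pollen markers, VGD1 and PPME1 were at 0 in WT and at 0.005 and 0.008 RPKM in OE2, and PMEI1 did not exceed 0.016 in either. PMEI2, the remaining pollen marker, differed more, with 5.46 RPKM in OE2 against 1.23 in WT. LEC1, an embryo regulator, was at 0 in both. All 4 compared seed and embryo markers nevertheless lay above WT, and CRA1, a seed storage protein gene, reached 9.42 RPKM in OE2 against 2.79 in WT. The seed and embryo markers under the filter lay on both sides of WT. In whole seedlings, fewer cells of a type and less RNA per cell cannot be told apart.

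PTB2 itself (AT5G53180, TAIR10.1 chromosome 5, 21568131 to 21571904, minus strand) was at 342.8 RPKM in OE2 and 9.03 in WT, a ratio with a counting interval of 36.7 to 39.4. In the other 4 columns it lay between 4.01 and 8.23 RPKM. The gene total does not separate the transgene from the endogenous copy. Genes beside the endogenous locus differed little. FTSH11, a membrane protease gene that ends 107 bases before PTB2, was at 23.9 RPKM in OE2 and 21.8 in WT, and RCAR3, an abscisic acid receptor gene further on that side, was at 80.8 and 76.5. On the other side SWEET3, a sugar transporter gene, and TRY, a regulator of hair cell patterning, were below the filter at 0.067 and 0.495 RPKM in OE2. PTB1 (AT3G01150, chromosome 3, 51496 to 54544) was at 6.49 RPKM in OE2 and 9.46 in WT, a ratio interval of 0.645 to 0.731. PTB3 (AT1G43190) was at 20.1 and 19.5 RPKM, with an interval of 0.996 to 1.07 that includes 1.

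Most of the transcriptome of OE2 lay close to WT. On the log2(RPKM + 1) scale, which understates differences of low genes, OE2 minus WT had a median of -0.05 over all compared genes, 95% of genes lay between -0.49 and 0.43, and 95.7% were within 0.5 of 0. A difference of 1 or more on this scale is called 2-fold here. By that rule 51 genes (0.259%) were higher in OE2 and 36 (0.183%) lower, together 87 (0.442%), with 58.6% of them higher. After median-of-ratios scaling the split was 62 higher and 21 lower, and after quantile normalization 58 and 21. PTB2 and 3 other genes were 4-fold or more higher and 0 genes were 4-fold or more lower. The counting interval of the ratio lay wholly above 2 for 46 of the 51 and wholly below 0.5 for 29 of the 36. For 2 called loci, ATCG00390 and ATMG00665, no interval could be given because the annotation used here lacks their span. The higher set held 42 protein-coding genes, 4 pseudogenes, 1 transcribed pseudogene, 2 tRNA genes and 1 noncoding RNA gene, and the lower set 35 protein-coding genes. Each set also held 1 organelle locus that is not in the annotation.

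**Figure D1:**
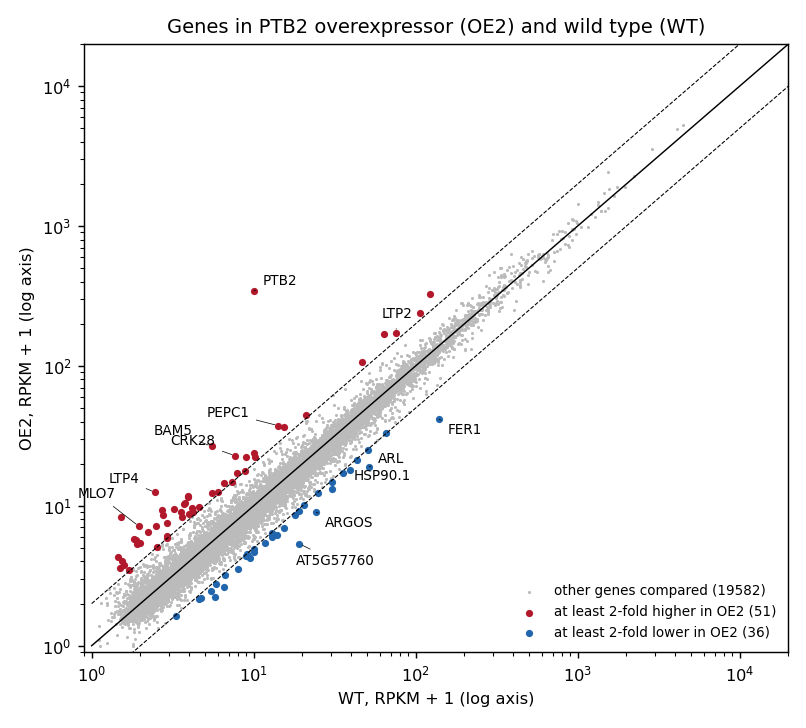
RPKM + 1 of each compared gene in WT (x axis) and OE2 (y axis), both on log axes, where the solid line marks equal values and the dashed lines a 2-fold difference. Most points follow the line of equality, PTB2 stands apart at 342.8 RPKM in OE2, and FER1 is the most abundant of the genes at least 2-fold lower.

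Apart from PTB2, the gene furthest above WT was AT5G02170, annotated as a transmembrane amino acid transporter (chromosome 5), at 7.30 RPKM in OE2 and 0.525 in WT, a ratio interval of 11.8 to 16.6. It was at 0.716 RPKM in MI12, 2.12 in MI3, 1.55 in OE1 and 0.732 in OE3, so OE2 was the highest of the 6 columns and WT the lowest. LTP4, a lipid transfer protein gene, was at 11.5 RPKM in OE2 and 1.47 in WT, and at 2.58, 9.60, 4.35 and 5.63 in MI12, MI3, OE1 and OE3. OE2 was again highest and WT lowest, with MI3 close to OE2. BAM5, a cytosolic beta-amylase gene, was at 25.6 RPKM in OE2 and 4.49 in WT. It was at 5.91, 70.5, 13.7 and 35.8 RPKM in MI12, MI3, OE1 and OE3, so OE2 lay within the other lines and WT below all of them. MLO7, a member of the MLO family of membrane proteins known from pollen tube reception, was at 6.12 RPKM in OE2 and 0.963 in WT, and at 0.258, 1.08, 3.07 and 1.15 in the same 4 lines. Here MI12, with lowered PTB1 and PTB2, was the lowest column and the 2 highest were OE2 and OE1.

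AT2G38240, annotated as a 2-oxoglutarate and iron-dependent oxygenase, was at 8.36 RPKM in OE2 and 1.73 in WT, with 4.16, 4.38, 2.60 and 1.28 in MI12, MI3, OE1 and OE3. The chloroplast locus ATCG00390 was at 7.65 RPKM in OE2 and 1.74 in WT, with 5.57, 2.33, 5.92 and 4.52 in the others. The 102 compared chloroplast-encoded genes had a median difference of 0.34, and their locus sums in the table were 2531 RPKM in OE2 and 1845 in WT. Whether the chloroplast RNA level bears on ATCG00390 was not tested. AT2G41150, a protein-coding gene of no assigned role, was at 10.8 and 2.93 RPKM, and the other 4 lines were at 3.01, 11.7, 5.07 and 4.31. AT2G16005, annotated as an MD-2-related lipid recognition protein, was at 8.57 and 2.21 RPKM, and the other lines were at 6.97, 2.55, 8.94 and 5.63. WT was the lowest column for the last 3 genes.

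CRK28, a cysteine-rich receptor-like kinase gene, was at 21.8 RPKM in OE2 and 6.71 in WT, a ratio interval of 3.09 to 3.42. It was at 2.53 RPKM in MI12, 5.44 in MI3, 31.2 in OE1 and 9.11 in OE3. The 2 overexpressors OE1 and OE2 thus stood above all other columns and MI12 below them. ELI3-2, annotated as a cinnamyl alcohol dehydrogenase, was at 10.6 RPKM in OE2 and 2.94 in WT, with 5.58, 8.55, 3.59 and 2.503 in MI12, MI3, OE1 and OE3. PMEI2, a pectin methylesterase inhibitor gene known from pollen, was at 5.46 and 1.23 RPKM, and the other 4 lines held a narrow range from 1.69 to 2.33. PMEI1, VGD1 and PPME1, the other pollen markers, were at 0.016 RPKM or less in OE2.

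The remaining genes at least 2-fold higher covered several kinds of protein. Among cell surface, wall and lipid proteins, LTP2 was at 171 RPKM in OE2 and 74.6 in WT, LTP3 at 16.8 and 7.82, the glycine-rich protein gene AT2G05510 at 169 and 63.2, the defensin-like gene AT3G05730 at 237 and 105, the xyloglucan-modifying enzyme gene XTH25 at 7.35 and 2.60 and the pectin methylesterase inhibitor family gene AT3G17225 at 8.06 and 2.54. Of genes linked to defence and senescence, the transcription factor gene WRKY26 was at 35.7 and 14.4 RPKM and SAG13, a senescence-associated gene, at 22.7 and 9.09. The leucine-rich repeat gene PIRL7 was at 3.33 and 0.453, and TAT3, a tyrosine aminotransferase gene that responds to jasmonate, at 21.4 and 7.96. WRKY26 and SAG13 were highest in OE2 among the 6 columns, whereas TAT3 was as high in MI12, at 22.2 RPKM.

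Metabolic and transport genes formed another group. PYD4, an aminotransferase of pyrimidine breakdown, was at 9.33 RPKM in OE2 and 2.73 in WT, the phosphoglycerate mutase family gene AT5G04120 at 6.15 and 1.48, the acyltransferase gene AT2G25150 at 2.60 and 0.494, the dihydroxyacetone kinase gene AT3G17770 at 21.3 and 9.14, the sulfotransferase gene ST4B at 11.6 and 5.06, the transporter gene UMAMIT46 at 7.70 and 3.01, the plastid glucose 6-phosphate translocator gene GPT2 at 13.9 and 6.39, which turned to -0.16 against the median over the other 4 columns, and the ion pump ATPase gene AT3G22910 at 8.01 and 3.21. Genes of phosphate recovery, PEPC1, PS2, RNS1 and PAP14, are described with their list below. COR15A, a cold-regulated chloroplast protein gene, was at 11.3 and 4.52 RPKM, and CRA1, a 12S seed storage protein gene, at 9.42 and 2.79. CRA1 was at 23.8 RPKM in MI12, and against the median over the other 4 columns its difference turned to -0.40. Of regulators and RNA-related genes, the zinc finger gene AT1G29560 was at 4.44 and 1.00 RPKM, AT4G25707, which the annotation calls a splicing factor 3A subunit, at 16.1 and 6.93, the phosphoinositide kinase gene PIP5K5 at 4.85 and 1.92, and the profilin family gene AT4G19400 at 6.58 and 1.92.

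The other higher loci have little or no assigned role. The noncoding RNA gene AT4G36648 was at 106.5 RPKM in OE2 and 45.9 in WT, the uncharacterized AT3G48640 at 13.5 and 5.55 and AT3G51400 at 8.75 and 3.61. The pseudogenes AT1G59265 and AT1G58889 were at 4.78 and 4.70 RPKM in OE2 and 0.835 and 0.879 in WT. Their values were near-equal in every column. Whether reads were shared between them was not tested, so they may not be separate differences. AT2G12460 was at 3.05 and 0.547, AT5G35935 at 4.07 and 1.54, and the transcribed pseudogene AT1G04457 at 2.496 and 0.695. The tRNA genes AT5G60285 and AT1G28830 rested on 28 and 16 reads in OE2 and 7 and 4 in WT. AT2G01021, a short locus at chromosome 2, 6571 to 6672, among ribosomal RNA copies, was at 325.6 RPKM in OE2, 121 in WT and between 19.7 and 303.7 in the other columns. The neighbouring ribosomal RNA locus AT2G01020 was at 497 and 328 RPKM in OE2 and WT. The part of ribosomal RNA carried into the libraries in the value of AT2G01021 was not tested.

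The gene furthest below WT was AT5G57760, an uncharacterized protein gene, at 4.36 RPKM in OE2 and 18.1 in WT, a ratio interval of 0.205 to 0.282. It was at 18.8, 7.07, 28.1 and 7.98 RPKM in MI12, MI3, OE1 and OE3, so OE2 was the lowest column. FER1, which encodes the iron store ferritin (chromosome 5), was at 40.5 RPKM in OE2 and 138 in WT, a ratio interval of 0.285 to 0.301. It was at 51.4, 139.5, 77.9 and 56.5 RPKM in the same 4 lines, so WT and MI3 were alike and the other columns were lower, with OE2 the lowest. ARGOS, which promotes organ growth and lowers ethylene sensitivity, was at 7.96 RPKM in OE2 and 23.4 in WT, with 21.6, 20.9, 30.3 and 11.9 in MI12, MI3, OE1 and OE3. Its relative ARL was at 18.0 RPKM in OE2 and 50.6 in WT, with 42.2, 56.0, 78.8 and 28.1 in the others. Both genes were lowest in OE2, next lowest in OE3 and highest in OE1.

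The mitochondrial locus ATMG00665 was at 1.64 RPKM in OE2 and 5.61 in WT, and WT was the highest of the 6 columns, with 3.21, 0.937, 0.907 and 3.40 in the rest. PDF1.3, a plant defensin gene under jasmonate and ethylene control, was at 12.2 RPKM in OE2 and 29.2 in WT. It was at 4.203 in MI12, 2.23 in MI3, 38.8 in OE1 and 3.32 in OE3, so OE2 lay below WT but above 3 of the other lines. Against the median over the other 4 columns its difference turned to 1.47, and reads of its near-identical copies may be shared. AT3G49160, annotated as a pyruvate kinase, was at 2.51 and 6.997 RPKM, with 3.92, 7.38, 4.18 and 3.96 in MI12, MI3, OE1 and OE3. AT5G48570, also called ROF2, encodes a peptidyl-prolyl isomerase that works with heat shock factors. It was at 5.17 RPKM in OE2 and 13.0 in WT, with 5.76, 7.58, 9.13 and 4.41 in the others.

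CYP94C1, whose enzyme breaks down the active jasmonate, was at 3.22 RPKM in OE2 and 8.43 in WT, with 10.0, 1.53, 9.63 and 1.88 in MI12, MI3, OE1 and OE3. AT5G51440, an HSP20-like chaperone gene, was at 5.95 and 14.4 RPKM, with 6.99, 7.997, 10.6 and 3.58 in the others, and WT was its highest column. AIR1, an auxin-induced gene of root cultures, was at 4.44 RPKM in OE2, 10.8 in WT and 4.73 in OE1, against 15.6, 19.4 and 15.2 in MI12, MI3 and OE3. AT4G20390, of an uncharacterized membrane protein family, had the same order of columns, at 3.64 RPKM in OE2, 9.06 in WT and 4.58 in OE1, against 10.8, 12.5 and 10.1. For the last 2 genes OE2 and OE1 were the 2 lowest columns.

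**Figure D2:**
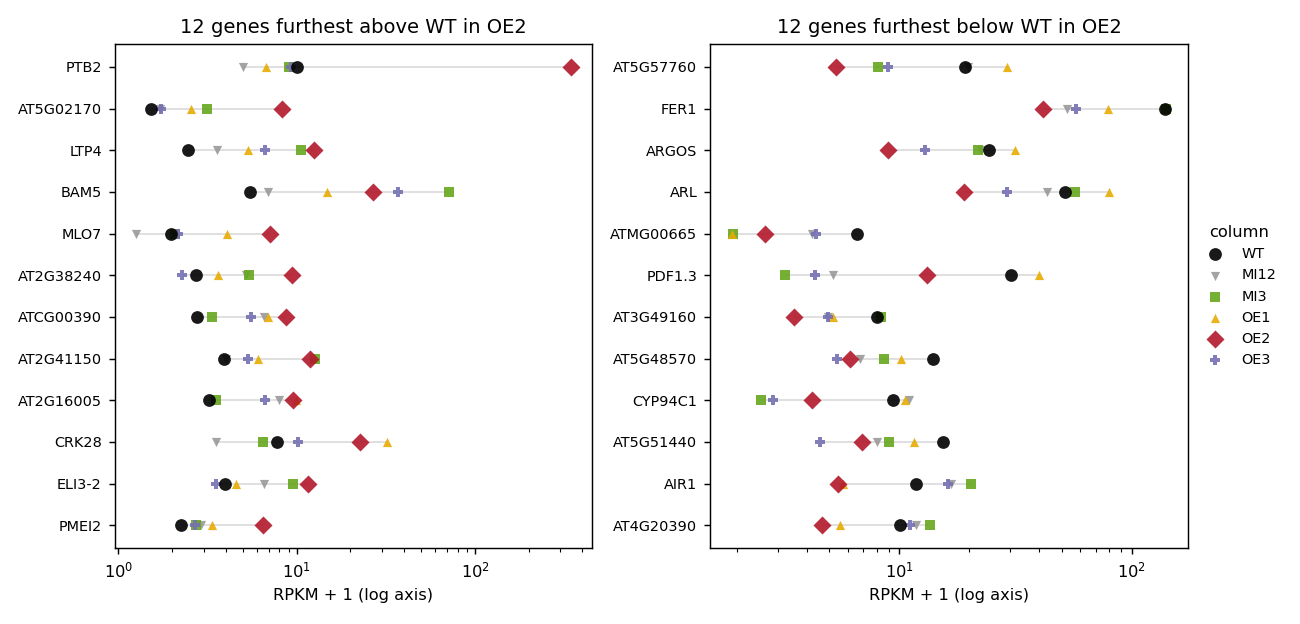
RPKM + 1 on a log axis in all 6 columns for the 12 genes furthest above WT in OE2 (left) and the 12 furthest below (right) among those with at least 5 RPKM in the higher of the 2 columns. OE2 is a large diamond and WT a large circle, and for genes such as BAM5 and PDF1.3 the other lines reach past OE2.

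Other genes at least 2-fold lower were of a few kinds. Chaperone genes HSP90.1 and HSP17.6II, iron genes IRT1 and AT1G47400, and the pyruvate decarboxylase gene AT4G33070 are described with their lists. Among genes of defence metabolism, CYP81F2, which modifies indole glucosinolates, was at 3.90 RPKM in OE2 and 9.01 in WT, a difference that fell short of 2-fold under median-of-ratios scaling (-0.98) and quantile normalization (-0.96). The berberine enzyme family genes AT1G30720 and AT1G26380 were at 3.49 and 8.09 and at 1.75 and 4.89. The peroxidase genes PER4 and AT4G36430 were at 0.644 and 2.34 RPKM and at 7.55 and 17.1. The calcium-dependent lipid-binding family gene AT4G34150 was at 32.0 and 65.1, and turned to 0.067 against the median over the other 4 columns. NEET, an iron-sulfur protein gene, was at 23.9 and 49.9 RPKM. It lay between 13.7 and 31.8 in the other columns, and its difference turned to 0.40 against their median. PMT6, a sugar alcohol transporter, was at 13.7 and 29.3. In root-linked families, the seed albumin superfamily gene AT4G12545 was at 5.29 and 11.95 RPKM and the lectin gene AT5G35940 at 1.45 and 4.49. The small auxin-up family gene AT2G37030 was at 5.02 and 11.98, and the C1 domain gene AT5G40590 at 1.15 and 3.597.

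Lower genes of no assigned role included several that were also low in OE1. AT5G10040 was at 1.18 RPKM in OE2, 3.72 in WT and 0.192 in OE1, AT1G12805 at 5.38, 12.02 and 1.27, AT3G51642 at 3.37, 8.25 and 3.35, and AT4G39675 at 20.3, 42.7 and 14.7. The pyruvate decarboxylase gene AT4G33070 had the same pattern. AT1G13670 was at 9.15 RPKM in OE2 and 19.3 in WT, AT5G36925 at 2.21 and 5.61 and AT4G28085 at 8.12 and 18.0. Near the 2-fold limit, PIP5K5 and AT5G35935 were just inside at 1.00, RTFL13, a small peptide gene, just outside at 0.997 and PR1 at 0.991. On the other side AT4G34150 was inside at -1.002 and AT1G66100 outside at -0.993.

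Since every ratio above uses the same WT column, the place of each column among all 6 was counted. OE2 was the highest column for 34 of the 51 higher genes, where it was highest for 7.35% of all compared genes, and WT was the lowest for 14, against 9.87% of all. Both held for 7 genes and neither for 10. Of the 36 lower genes, OE2 was lowest for 13, against 23.9% of all compared genes, and WT highest for 16, against 10.6% of all. Both held for 4 and neither for 11. The rule itself favours these places, so the counts describe the genes and test nothing. Read against the median over the other 4 columns in place of WT, 48 of 51 higher genes and 31 of 36 lower genes kept their side, and 29 and 12 remained at least 2-fold apart.

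An additional comparison used 2 columns that played no part in the 2-fold call, although both counted in the filter on low values. These were OE1, which overexpresses the close relative PTB1, and MI12, in which PTB1 and PTB2 are lowered. Of the 50 higher genes other than PTB2, 10 were at least 2-fold higher in OE1 than in MI12, where 0.636% of all compared genes were, and 3 at least 2-fold lower, against 0.885%. In all, 35 of the 50 were above MI12, against 48.6% of all compared genes, with a median of 0.17. Those 2-fold higher were CRK28, MLO7, PIRL7, AT1G29560, AT2G12460, AT4G19400, AT4G25707, WRKY26, AT4G36648 and BAM5. TAT3, AT5G35935 and AT2G01021 were the 3 that lay the other way. Of the 36 lower genes, 8 were at least 2-fold lower in OE1 than in MI12 and 2 at least 2-fold higher, with a median of -0.10, and 16 were above MI12. AIR1, AT4G12545, AT4G33070 and AT5G10040 were among the 8, while PDF1.3 and HSP17.6II were the 2. With the filter read on WT, MI3, OE2 and OE3 only, chosen after seeing the data, PIRL7, AT2G12460, AT1G58889 and AT1G59265 left the higher genes and PER4 the lower ones. Of the 46 higher genes then left, 8 were at least 2-fold higher in OE1 than in MI12, where 0.6% of all 19504 genes were, and 3 at least 2-fold lower, against 0.887%. Of the 35 lower genes 8 were at least 2-fold lower and 2 higher. These genes were picked for their distance in OE2, and neither pair of columns has replicates.

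**Figure D3:**
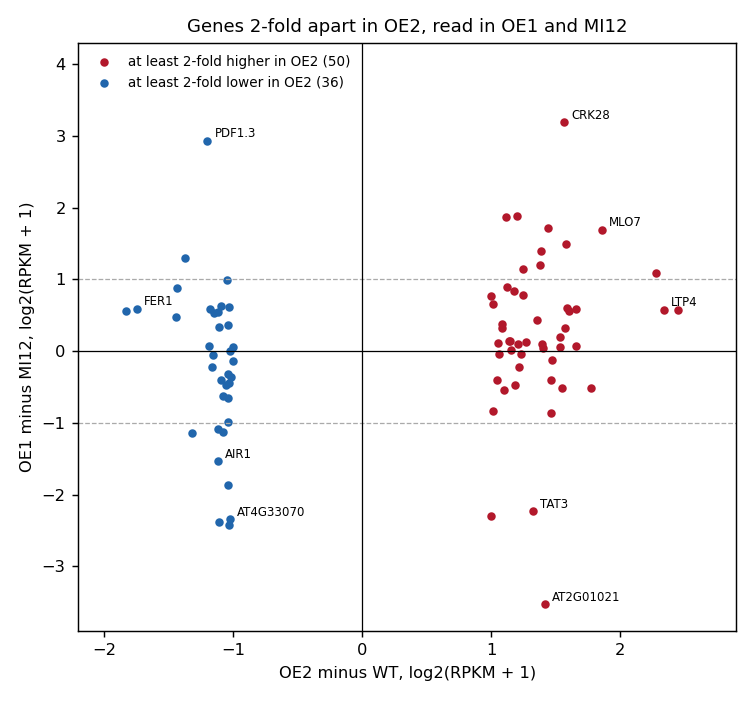
Each point is a gene at least 2-fold apart in OE2 (PTB2 left out), with its OE2 minus WT difference on the x axis and its OE1 minus MI12 difference on the y axis, both on the log2(RPKM + 1) scale. Dashed lines mark a 2-fold difference between OE1 and MI12, which 10 higher genes exceed upward and 8 lower genes downward.

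Genes were next read by pathway. A list of related genes is given by its count of members 2-fold apart and by its median difference, to be set beside 0.442% of all compared genes and their median of -0.05. Because that median is below 0, most compared genes lay below WT, 12416 of 19669, while 7241 lay above. Counts of list members on that side are therefore not to be read against an even split. The lists were not tested. At these read numbers a counting interval can leave out 1 at a small difference, as for the splicing factor gene SC35 (0.848 to 0.939). The share of all compared genes whose interval leaves out 1 was not counted, so such counts within a list have no background.

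**Figure D4:**
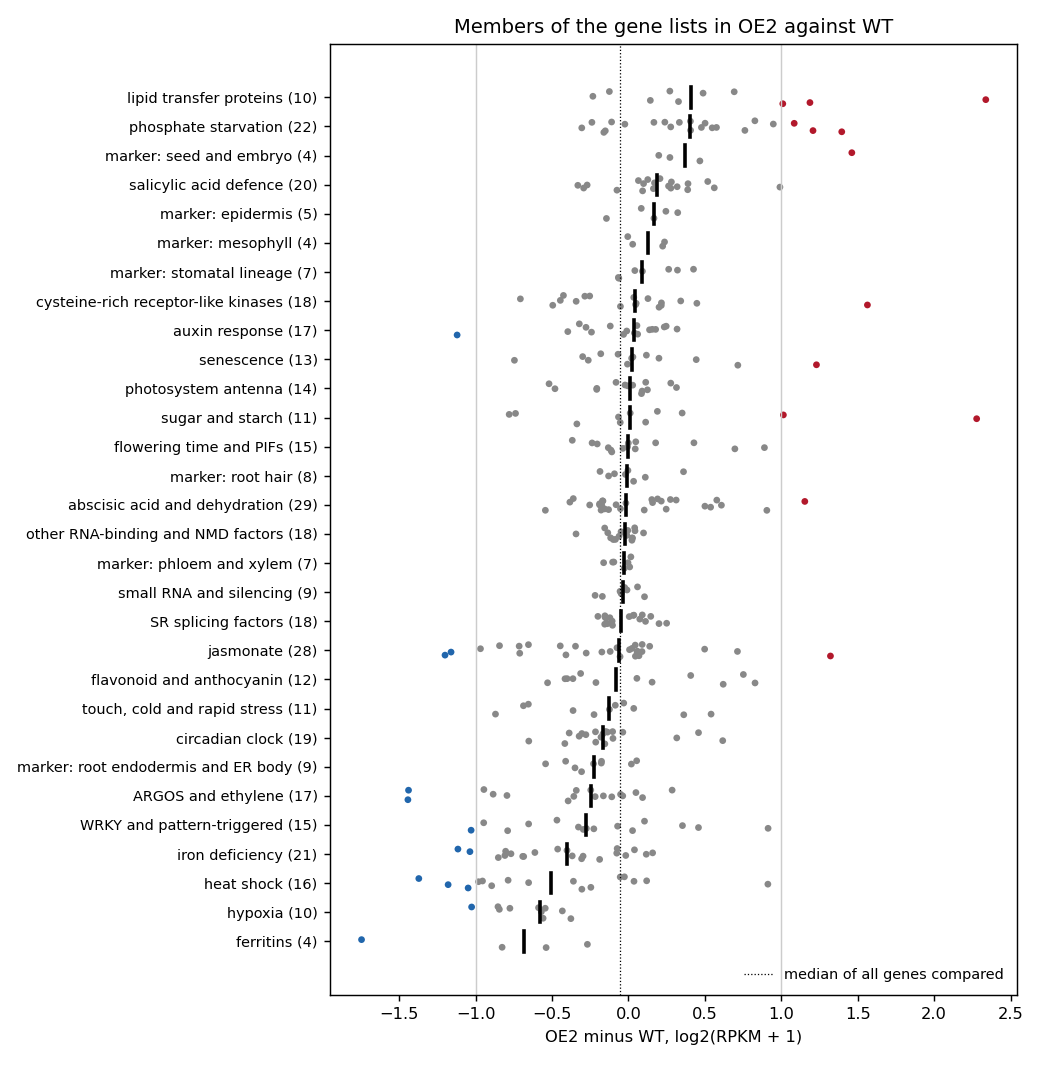
OE2 minus WT on the log2(RPKM + 1) scale for the compared members of each gene list, 1 point per gene, with the number compared in parentheses, a bar at the list median and a dotted line at the median of all genes. Points at least 2-fold higher are red and at least 2-fold lower blue. Among lists with more than 1 compared member, ferritins, hypoxia and heat shock genes have the lowest medians, and lipid transfer and phosphate starvation genes the highest.

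Iron genes lay below WT on both the storage and the uptake side. Ferritins store iron in plastids and mitochondria and are induced by iron excess, whereas uptake genes are induced by iron shortage. All 4 ferritin genes were below WT with counting intervals under 1, and 1 of them, FER1, was 2-fold lower. FER3 was at 21.2 RPKM in OE2 and 38.4 in WT, FER4 at 16.01 and 23.7 and FER2 at 0.923 and 1.32. The 4 genes summed to 78.6 RPKM in OE2 and 202 in WT, with the other columns between 86.6 and 198. Of 21 compared iron deficiency genes 18 were below WT, 2 of them at least 2-fold, and the median was -0.40. The iron transporter gene IRT1 was at 3.35 RPKM in OE2 and 7.92 in WT, which fell short of 2-fold under both scalings. AT1G47400, an iron deficiency list member that the annotation used here leaves without a name, was at 17.1 and 38.2. FRO2, the ferric chelate reductase of the root surface, was at 1.11 and 2.70 RPKM. F6'H1, which makes iron-binding coumarins, was at 13.4 and 25.1. The regulators bHLH38 and bHLH39, whose reads may be shared, were at 6.84 and 12.7 and at 5.82 and 10.6. FIT, their partner, was at 2.08 and 2.81, and AHA2, a proton pump of the root, at 166 and 162 RPKM.

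The other columns show how these iron genes varied among lines. IRT1 was at 9.17 RPKM in MI12, 1.46 in MI3, 12.03 in OE1 and 12.99 in OE3, so OE2 lay above MI3 only. The same held for bHLH38 and bHLH39, at 1.78 and 2.72 RPKM in MI3 and 36.2 and 35.5 in OE1. FER1 and IRT1 were thus both low in OE2, whereas MI3 had WT-like FER1 with low IRT1, and OE1 had intermediate FER1 with high IRT1. Against the median over the other 4 columns the iron deficiency median was -0.52 and the ferritin median -0.30.

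Every compared gene of the hypoxia list, 10 of 10, was below WT with a counting interval under 1, and 1 was 2-fold lower. These genes serve fermentation and oxygen sensing and are switched on by low oxygen. The median was -0.58, and -0.65 against the median over the other 4 columns. AT4G33070, also called PDC1, a pyruvate decarboxylase of fermentation, was at 11.3 RPKM in OE2 and 24.1 in WT. As the only 2-fold member it fell short under median-of-ratios scaling, at -0.96, and under quantile normalization, at -0.95. ADH1, the alcohol dehydrogenase of the next step, was at 25.9 and 45.1, and the sucrose synthase gene SUS4 at 7.88 and 15.0. LBD41, a regulator, was at 10.8 and 20.3 RPKM, the ethylene response factor gene HRE1 at 13.8 and 21.2, and the haemoglobin gene HB1 at 31.4 and 47.1. ADH1 was at 144 RPKM in MI3 and 10.7 in OE1, and PDC1 at 68.6 and 4.02, so for both OE2 lay between WT and OE1 and MI3 far above. LBD41 and HB1 were lowest in OE2. The markers of root endodermis and ER body, 9 compared, had a median of -0.23 with 0 members 2-fold apart, and summed to 627 RPKM in OE2 and 715 in WT. The median of root hair markers was -0.01, and the share of root tissue in the samples was not tested.

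Most heat shock genes were below WT, but for several of them WT was itself the highest column. Of 16 compared members 13 were below WT, 3 of them at least 2-fold, with a median of -0.51. Chaperones of this group protect proteins during heat. HSP90.1 was at 16.1 RPKM in OE2 and 34.4 in WT, with 14.9, 15.4, 30.5 and 8.53 in MI12, MI3, OE1 and OE3, and fell short of 2-fold under both scalings. The small heat shock gene HSP17.6II was at 1.24 and 4.78 RPKM, with 0.646, 1.04, 3.04 and 0.270 in the others. HSFA2, a heat shock factor, was at 0.690 and 2.34, and HSP70 at 28.6 and 56.4. WT was the highest of the 6 columns for these 4 genes and for ROF2. HSP18.2, another small heat shock gene, lay the other way at 4.86 RPKM in OE2 and 2.11 in WT. Against the median over the other 4 columns the list's median turned to 0.13, HSP17.6II to 0.28 and HSP90.1 to 0.084.

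Phosphate starvation genes lay above WT in OE2, within the range of the other lines. These genes recover phosphate from outside sources, nucleic acids and membrane lipids when it is scarce. Of 22 compared members 16 were above WT, 3 of them at least 2-fold, with a median of 0.41, which became -0.15 against the median over the other 4 columns. PEPC1, a phosphatase gene, was at 36.4 RPKM in OE2 and 13.2 in WT, with 11.3, 98.6, 12.2 and 40.7 in MI12, MI3, OE1 and OE3. RNS1, a secreted ribonuclease, was at 8.62 and 3.17, with 2.23, 76.6, 2.46 and 19.1 in the others, and turned to -0.29 against their median. PS2, annotated as an inorganic pyrophosphatase, was at 43.5 and 20.0 RPKM, with 13.7, 129.7, 17.3 and 58.9. In all 3 genes OE2 lay below MI3 and OE3 and above WT, MI12 and OE1. PAP14, a purple acid phosphatase gene outside the list, was at 5.06 and 1.93 RPKM, with 11.2 in MI3 and 5.999 in OE3. MGDC, which makes galactolipid to replace phospholipid, was at 6.83 and 3.06 RPKM, PAP17, another acid phosphatase, at 43.6 and 24.1, and the phosphate sensor gene SPX3 at 7.34 and 3.92. The exporter PHO1 was at 13.4 and 16.8 RPKM and the phosphate transporter PHT1;1 at 19.4 and 21.7, both below WT.

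Promoters of the phosphate and heat shock genes were searched for the motif each set is known for. The P1BS motif, GNATATNC, is bound by the phosphate starvation regulator PHR1 and reads the same on both strands. It was present in the 300 bases upstream of the annotated gene start for 8 of the 22 phosphate members (36.4%), 5 of the 42 higher protein-coding genes (11.9%) and 4 of the 35 lower ones (11.4%), against 6.5% of 27444 protein-coding genes. The heat shock element was searched as GAANNTTCNNGAA on both strands. It was found in 5 of 16 heat shock members (31.2%), 1 of the 42 higher protein-coding genes (2.38%) and 1 of the 35 lower ones (2.86%), against 0.485% of all. A match is a description of letters, not a bound site. Windows of 140 bases are printed for PAP14, PS2 and SPX3, which were higher in OE2 and hold P1BS, and for the small heat shock gene HSP17.4 (3.37 RPKM in OE2, 6.54 in WT), which holds the heat shock element and was chosen after its values were seen. Capitals mark the matches, the strand is that of the gene, the reading is 5′ to 3′, and the sequences are RefSeq's for TAIR10.1. The windows lie at chr2:19266517-19266656 (minus) for PAP14, chr1:27466479-27466618 (minus) for PS2, chr2:18606190-18606329 (plus) for SPX3 and chr3:16984868-16985007 (minus) for HSP17.4.
PAP14: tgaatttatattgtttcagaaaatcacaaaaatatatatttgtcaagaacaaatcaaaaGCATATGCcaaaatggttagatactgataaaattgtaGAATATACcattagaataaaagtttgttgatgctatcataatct
PS2: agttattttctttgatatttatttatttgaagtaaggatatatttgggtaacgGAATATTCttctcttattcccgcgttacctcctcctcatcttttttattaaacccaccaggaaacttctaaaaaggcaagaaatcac
SPX3: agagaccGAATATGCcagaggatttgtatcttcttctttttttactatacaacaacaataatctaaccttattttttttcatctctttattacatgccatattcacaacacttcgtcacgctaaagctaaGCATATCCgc
HSP17.4: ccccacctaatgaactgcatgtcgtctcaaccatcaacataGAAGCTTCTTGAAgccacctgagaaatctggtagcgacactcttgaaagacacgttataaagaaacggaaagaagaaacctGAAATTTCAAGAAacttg
Counted from the gene start, PAP14 holds 2 P1BS matches at -141 and -104, PS2 holds 1 at -217, and SPX3 holds 2 at -213 and -90. HSP17.4 holds 2 heat shock elements at -99 and -18.

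Lipid transfer proteins are small secreted proteins of the epidermis and cuticle that carry lipids. Their genes had a median of 0.408, and of 0.70 against the median over the other 4 columns. The value of 0.408 was the highest among lists with more than 1 compared member, with phosphate starvation almost equal at 0.406. Of 10 compared members 3 were at least 2-fold higher, LTP2, LTP3 and LTP4, and 8 were above WT with counting intervals over 1. LTP1 was at 629 RPKM in OE2 and 389 in WT, and between 281 and 430.1 in the other columns. LTP2 was at 171 RPKM in OE2, with 74.9, 130.5, 53.5 and 55.4 in MI12, MI3, OE1 and OE3. AZI1, which primes systemic defence, was at 151 and 108, and DIR1, which acts in the same response, at 36.8 and 40.2. LTP3 and LTP4 are neighbours on chromosome 5 and close in sequence, so reads may be shared. The 5 epidermis markers had a median of 0.17 with 0 members 2-fold apart, and summed to 463 RPKM in OE2 and 431 in WT.

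**Figure D5:**
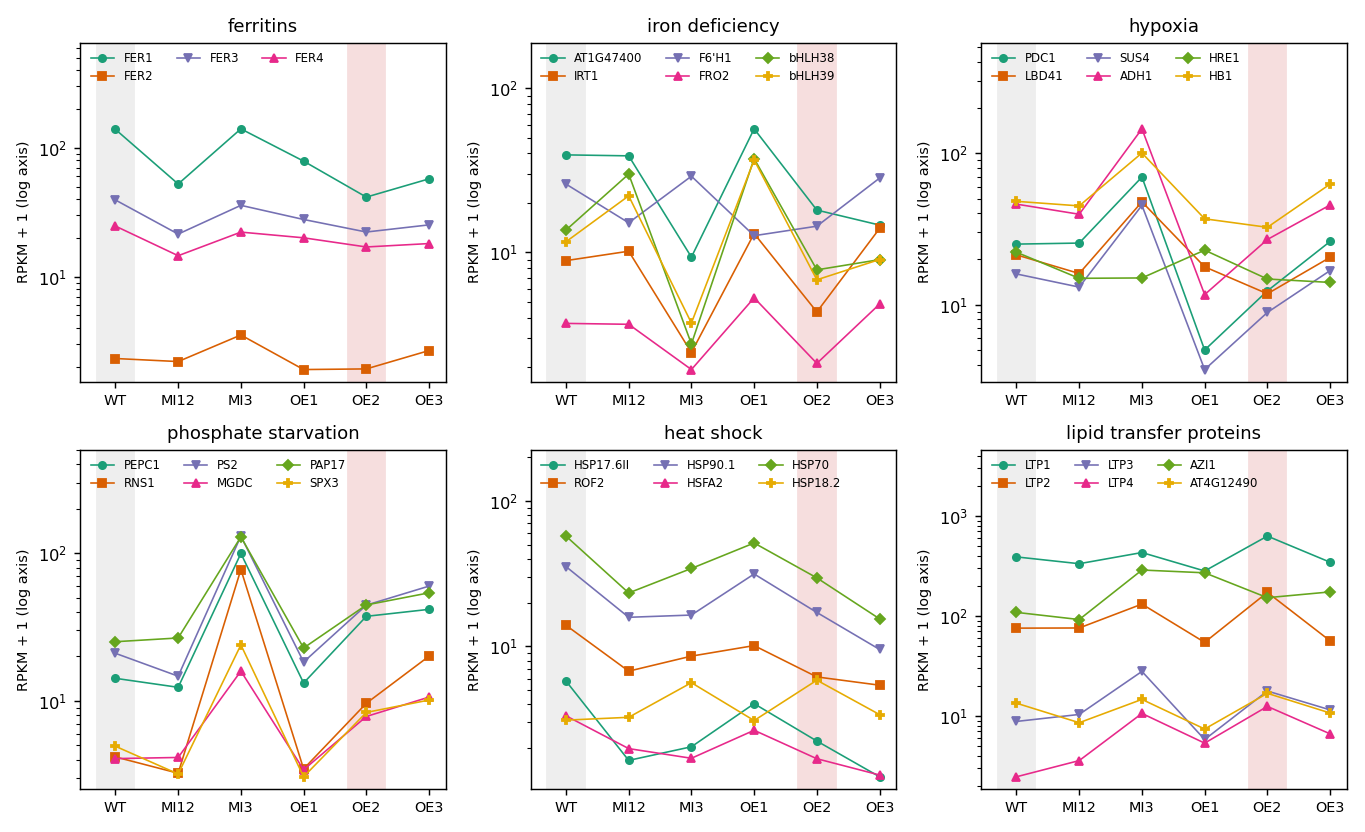
RPKM + 1 on a log axis in the 6 columns (x axis) for the 4 ferritins and 6 members of 5 further lists, 1 line per gene, with WT shaded grey and OE2 shaded red. The lines join separate genotypes and imply no order. MI3 holds the highest value of each phosphate gene shown and of each hypoxia gene shown except HRE1, and OE2 the highest LTP1, LTP2 and LTP4.

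Defence genes were read by branch, and members of the same branch lay on both sides of WT. Salicylic acid drives resistance to biotrophic pathogens, and 16 of 20 compared genes of its synthesis and response were above WT, 0 of them 2-fold, with a median of 0.19, or 0.50 against the other 4 lines. PR1, a secreted antimicrobial marker, was at 60.6 RPKM in OE2 and 30.0 in WT, and between 15.3 and 34.1 in the other columns. The further genes named here lay at smaller distances from WT. NIMIN1, a partner of the receptor NPR1, was at 2.67 and 1.49 RPKM, PBS3, of salicylic acid synthesis, at 7.29 and 5.32, and SARD1, a transcription factor, at 4.73 and 3.38. All 4 genes were highest in OE2. GRX480, a glutaredoxin gene, was at 3.23 and 1.95 RPKM, and FMO1, of systemic resistance, lay below WT at 2.80 and 3.78.

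WRKY factors and genes of pattern-triggered immunity stood at a median of -0.28 over 15 compared members, CYP81F2 among them 2-fold lower except under the 2 scalings, and at 0.0093 against the other 4 lines. WRKY33, a regulator of camalexin synthesis, was at 39.4 RPKM in OE2 and 20.5 in WT, and between 18.16 and 22.9 in the other columns, so OE2 stood alone above. Enzyme genes of camalexin synthesis lay on both sides. PAD3, the last enzyme, was at 11.8 and 19.1, and CYP71A12, of the same branch, at 6.93 and 14.3. CYP71A13, also of that branch, lay above WT at 7.71 and 5.34. WRKY22 was at 6.60 and 12.1 RPKM and WRKY40 at 6.202 and 8.96. Cysteine-rich receptor-like kinases spread in both directions, with a median of 0.04 and CRK28 as the only one of 18 compared members 2-fold apart. CRK11 was at 8.64 and 14.7 RPKM, CRK10 at 12.8 and 18.5, CRK14 at 3.27 and 4.74, CRK41 at 3.44 and 5.05 and CRK13 at 3.45 and 2.26.

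Growth and ethylene genes lay below WT, led by ARGOS and ARL. The median of 17 compared members was -0.25, with 14 below WT and 2 of them 2-fold, and -0.33 against the other 4 lines. ACO1, an ethylene-forming oxidase, was at 12.7 RPKM in OE2 and 25.4 in WT. EBF1 and EBF2, which direct breakdown of the ethylene factor EIN3 and are induced by ethylene, were at 42.8 and 56.6 and at 61.9 and 115 RPKM. Both were lowest in OE2. ERF2 was at 10.9 and 19.6, and EIN3 itself at 85.1 and 91.9. Auxin response genes had a median of 0.04, with AIR1 the only one of 17 compared members 2-fold apart. IAA29 was at 9.66 and 13.0 RPKM, IAA6 at 2.16 and 2.94, IAA5 at 3.20 and 2.54, AIR12 at 18.7 and 22.9, and the auxin-conjugating enzyme gene GH3.6 at 38.3 and 30.5.

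Jasmonate genes, 28 compared, had a median of -0.06 with 1 member 2-fold higher and 2 lower. TAT3 was the higher, and PDF1.3 and CYP94C1 the lower. The repressor gene JAZ6 was at 27.6 RPKM in OE2 and 54.8 in WT, ORA59, the regulator of the defensin branch, at 3.21 and 6.56, and the storage protein gene VSP2 at 12.7 and 21.5. ORA59 and VSP2 were lowest in OE2. LOX2, of jasmonate synthesis, was above WT at 95.7 and 67.5 RPKM, as was VSP1 at 20.0 and 11.8. For abscisic acid and dehydration genes the median was -0.02, and of 29 compared members COR15A alone was 2-fold apart. COR15A was at 49.1 RPKM in MI3 and between 3.71 and 3.76 in MI12, OE1 and OE3. RD20, a calcium-binding lipid droplet protein gene, was at 13.3 and 6.65 RPKM in OE2 and WT, KIN1 at 11.3 and 7.05, RD22 at 73.3 and 48.8 and the phosphatase gene HAI1 at 3.44 and 2.06, while the dehydrin gene ERD10 was below WT at 116 and 169.

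Sugar genes held 2 of 11 compared members 2-fold higher, BAM5 and GPT2, with a median of 0.01. The sugar starvation marker ASN1, an asparagine synthetase gene, was at 81.4 RPKM in OE2 and 140.5 in WT, the hexose transporter gene STP1 at 130.2 and 218 and DIN10 at 517 and 653. DIN2 lay above WT at 3.66 and 2.65. Of senescence genes SAG13 was the only one of 13 compared members 2-fold apart, and the median was 0.02. The factor ORE1, which promotes leaf senescence, was at 12.2 RPKM in OE2 and 21.1 in WT, and SAG21, a stress protein gene, at 304 and 223. SAG29, a sugar transporter gene, was at 1.89 and 0.759 RPKM, NAP at 7.61 and 9.32 and JUB1 at 0.827 and 1.248.

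Flowering and clock genes had 0 members 2-fold apart, which does not set lists of this size apart when 0.442% of all compared genes were. Among flowering genes, 15 compared with a median of -0.01, SVP, which delays flowering, stood at 23.8 RPKM in OE2 and 12.4 in WT. It was at 9.12, 19.4, 15.3 and 14.4 RPKM in MI12, MI3, OE1 and OE3, so OE2 was highest and MI12 lowest. FLC, its partner repressor, was low throughout, at 1.02 RPKM in OE2 and 0.249 in WT, a ratio interval of 3.40 to 4.99, with 0.033 in MI12 and 1.74 in OE1. FLC reached 1 RPKM only in OE2 and OE1. It thus entered the comparison through the columns where it was high, and its ratio is to be read with that limit. FLM, a further partner whose splice forms are known to differ in action, was at 3.65 and 5.003 RPKM, with 8.71 in MI12 and 3.98 in OE1. PIF1 was at 11.2 and 8.05, AGL24 at 3.74 and 4.59 and CO at 3.21 and 3.85. Clock genes, 19 compared, had a median of -0.17 with 16 below WT, under continuous light. CCA1, a core clock repressor, was at 17.1 RPKM in OE2 and 22.6 in WT, ELF4 at 19.9 and 31.9, LNK1 at 5.21 and 7.29 and CDF1 at 4.78 and 6.23. RVE2 was at 78.8 and 51.1 and PRR9 at 2.42 and 1.49.

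Genes of the RNA machinery lay close to WT, as most compared genes did, and 0 of the listed members other than PTB2 were 2-fold apart. With 0.442% of all compared genes 2-fold apart, a count of 0 does not set lists of this size apart. Serine-arginine (SR) splicing factors, 18 compared, had a median of -0.05 and a range from -0.20 to 0.25. RS31a was at 7.75 RPKM in OE2 and 6.36 in WT and RS41 at 37.1 and 32.2, whereas RS2Z33 was at 33.6 and 38.7, RSZ21 at 12.8 and 14.4, SCL30 at 15.98 and 17.9 and SC35 at 13.7 and 15.4. RS31a and RS41 were highest in OE1 and OE2. Other RNA-binding proteins and factors of nonsense-mediated decay, 18 compared, had a median of -0.02. The RNA-binding protein gene UBP1B was furthest, at 15.9 and 20.4 RPKM, followed by RBP47B at 35.03 and 39.1 and AT1G60900 at 14.3 and 15.8. The cap-binding gene CBP80 was at 8.15 and 8.92, UPF3, of nonsense-mediated decay, at 13.3 and 14.3 and RBP45A at 27.1 and 25.2. Small RNA genes, 9 compared, had a median of -0.03, with AGO2 at 4.82 and 5.77 RPKM, RDR1 at 5.53 and 6.35 and DCL1 at 8.52 and 7.85.

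Photosystem antenna genes, 14 compared, had a median of 0.01. LHCB2.1 and LHCB2.2, whose reads may be shared, were at 472 and 658 and at 290.3 and 416 RPKM and were lowest in OE2. LHCB4.3 was at 24.9 and 19.8, LHCA1 at 796 and 920, and LHCB1.3 at 4948 and 4083. Flavonoid genes lay on both sides of WT, with a median of -0.08 over 12 compared members. Enzyme genes of early steps and flavonols lay below WT, FLS1 at 12.04 RPKM in OE2 and 17.8 in WT and chalcone synthase TT4 at 72.3 and 90.09. Regulators did not share 1 side. MYB12 lay below WT at 0.540 and 1.05 RPKM, whereas MYB111 lay above WT at 2.48 and 1.625 and was highest in OE2. Genes of the late anthocyanin steps lay above WT, DFR at 4.08 and 2.02, LDOX at 3.91 and 1.76 and the transport protein gene GSTF12 at 2.67 and 1.39. Among rapid stress genes, 11 compared with a median of -0.12, or 0.13 against the other 4 lines, the calmodulin-like gene TCH3 was at 250 and 402 RPKM and the wall enzyme gene TCH4 at 440.4 and 342. ERF6 was at 5.02 and 10.0, ERF5 at 2.55 and 4.58, ERF11 at 3.05 and 4.21 and ZAT12 at 9.58 and 6.27.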

How the data were processed

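RNA of 11-day-old seedlings was sequenced from TruSeq libraries, per the labels' protocols. The authors deposited 1 RPKM value per gene and genotype, pooled where a genotype has 2 libraries, for 33602 genes, with genome release TAIR10 per the submitters' processing notes. No source used here names the aligner, the counting tool, the strand setting, the multi-mapping rule or the way of pooling, so paralogs and overlapping or antisense genes are uncertain. Groups came from the labels. For 1 of the WT libraries the title and the description give different replicate numbers. A WT cell without a number was treated as 0. Tests planned for single libraries could not be run on pooled values, so differences are descriptions on log2(RPKM + 1).

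Reads were recovered from steps between low values. Within a tolerance of 0.1 of a whole read came 76.2% (OE2) and 77.0% (WT) of low values, where chance gives 20%. In genes with introns, 62.5% (OE2) and 60.9% (WT) of low values came out whole when the length was the full gene span and 16.0% and 16.7% with exon length, so levels are per kilobase of gene span, introns included. Without molecular identifiers reads are not independent molecules, and intervals cover counting error only. The procedure was tested on simulated data.

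The members and the 34 gene lists were chosen with earlier results of these data known. The text names PTB1 to PTB3, the 12 genes furthest on each side that reach 5 RPKM in the higher column, every other gene at least 2-fold apart, up to 6 members of each list, and 2 neighbours on each side of PTB2; further members named with values were chosen after these were seen. Names, coordinates and sequences came from RefSeq TAIR10.1, which held 32835 of the identifiers. Alternatives were pseudocounts of 0.1 and 0.5, quantile and median-of-ratios scaling, no filter, a minimum of 5 RPKM in 2 columns, the other 4 lines as control, no organelle or ribosomal RNA genes, 5 RPKM in the higher column, and, added after seeing the data, the filter read without OE1 and MI12. The software was matplotlib 3.10.9, scipy 1.17.1, numpy 2.4.6 and pandas 2.3.3 under Python 3.11.15.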

Additional observations from a re-analysis of the deposited data

How the results depend on the processing

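No paired analysis was possible because each genotype has 1 column that carries no replicate number, and leaving out a replicate could not be run for the same reason. The number of genes at least 2-fold higher was 131 and 85 with pseudocounts of 0.1 and 0.5 RPKM and 31 with a minimum of 5 RPKM in 2 columns. The number lower was 96 with a pseudocount of 0.1 and 21 after either median-of-ratios scaling or quantile normalization. Those scalings kept 72 of the 87 genes on the same side and moved the median of all genes by 0.06 and 0.05. The other counts stayed within 1.5 times, among them 74 higher and 36 lower with the median over the other 4 columns as control, although 41 of the 87 genes were called on the same side and PDF1.3 on the opposite one. With the filter read on WT, MI3, OE2 and OE3 only, chosen after seeing the data, 47 and 35 genes were called and the heat shock median was -0.36. PTB2 differed by 5.23 and 5.17 with the smaller pseudocounts, 5.17 after median-of-ratios scaling, 4.9984 after quantile normalization and 5.45 against the other lines, PTB1 by -0.35 against the other lines, and PTB3 by 0.11 and 0.10 after the 2 scalings.

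List medians moved mainly with the control. Against the other 4 lines the heat shock median turned to 0.13, phosphate starvation to -0.15, rapid stress to 0.13, WRKY and pattern-triggered genes to 0.0093 and seed markers to -0.39, while ferritins were at -0.30, iron deficiency at -0.52, lipid transfer proteins at 0.70 and salicylic acid genes at 0.50. With either filter of 5 RPKM the ferritin median was -0.83, and with 5 RPKM in the higher column the heat shock median was -0.72. Without a filter the heat shock median was -0.28, with a pseudocount of 0.1 the hypoxia median was -0.71, and after quantile normalization the mesophyll median was -0.052. Of the genes called, 8 turned direction against the other lines, AT4G34150 to 0.067, CRA1 to -0.40, GPT2 to -0.16, HSP17.6II to 0.28, HSP90.1 to 0.084, NEET to 0.40, PDF1.3 to 1.47 and RNS1 to -0.29. The cause of these differences was not tested.

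The values limit what can be said. With 1 value per genotype, differences between plants, batches and genotypes cannot be told apart, and no interval here covers the spread between plants. Genes under 5 RPKM rest on few reads where short, as the 2 tRNA genes show.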

Other observations

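Seed and stomatal markers were measured beside the lists. Of 15 seed and embryo markers 4 entered the comparison and all 4 lay above WT, with CRA1 at least 2-fold higher. CRU3, another storage protein gene, was at 1.81 RPKM in OE2 and 1.03 in WT, OLEO1, an oil body protein gene, at 0.603 and 0.328 and OLEO2 at 0.804 and 0.572. OLEO1 and OLEO2 reached 1 RPKM only in MI12 and OE1. Of the markers under the filter, CRB, SESA1, SESA2, SESA4 and EM1 were lower in OE2 than in WT. SESA3, OLEO4, EM6, ABI3 and FUS3 were higher. The seed and embryo markers summed to 14.6 RPKM in OE2 and 6.35 in WT, of which CRA1 alone held 9.42 and 2.79. The sums in the other columns lay between 4.47 and 45.9. Stomatal lineage markers, 7 compared, had a median of 0.09. EPF1 and EPF2, peptides that limit stomatal number, were at 3.47 and 2.33 RPKM and at 2.40 and 1.72, and their receptor TMM was at 9.58 and 7.82. All 3 were highest in OE2. Phloem and xylem markers, 7 compared, had a median of -0.03.

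Of the 87 genes, 8 lay in 4 pairs of neighbours. PMEI2 and AT3G17225, both pectin methylesterase inhibitor family genes on the minus strand of chromosome 3 with a gap of 101 bases, were 1.53 and 1.36 above WT on the log2 scale. LTP4 and LTP3 on chromosome 5 were 2.34 and 1.01 above. AT4G12545 and AIR1 on chromosome 4 were at -1.04 and -1.12. AT5G35935 and AT5G35940 on chromosome 5 lay on opposite sides, at 1.00 and -1.16.

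Outside the filter, AT2G11270 and AT4G33970 were the only genes with a difference of at least 2-fold.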
